A study of Mus musculus with 6 samples.

Results

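The genes described here are those of the proteasome in mouse bone marrow-derived macrophages (BMDM): every gene of the deposited table whose symbol has the stem Psma, Psmb, Psmc, Psmd, Psme, Psmf or Psmg followed by a digit. The rule found 49 of the 14005 listed genes, and all 49 could be tested. Of these, 47 encode proteasome subunits, activators, an inhibitor or assembly chaperones. The other 2 matched by name alone: Psmc3ip encodes a meiotic recombination factor, and Psme2b is a near copy of the activator gene Psme2. PolyA-selected RNA was sequenced from 6 libraries of primary macrophages grown from bone marrow, 3 in each of 2 groups on the C57BL/6J background, with male and female material pooled in both. The controls were wild type. The other group, labelled Txn1 KO, combines 2 alleles by its genotype label. Txn1tm1.1Ees/J is an allele of Txn1, the gene of the disulfide reductase thioredoxin-1, and B6.129P2-Lyz2tm1(cre)lfo/J places a Cre recombinase in the myeloid gene Lyz2. No group with the Cre alone was analysed here, so an effect of the Cre allele and one of the Txn1 allele cannot be told apart.

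The proteasome is the protease that degrades most proteins marked with ubiquitin. Its 20S core is a barrel of alpha rings, which gate the entrance, and beta rings, of which the subunits beta 1, beta 2 and beta 5 cut the substrate. The 19S cap binds and unfolds the substrate, with a ring of ATPases at its base. In cells exposed to interferon gamma, and at rest in many immune cells, the inducible subunits beta 1i, beta 2i and beta 5i take the place of the standard ones to form the immunoproteasome, which favours peptides suited to MHC class I, and the PA28 cap can replace the 19S cap. Standard subunit genes are known targets of NFE2L1 and, for part of the set, NFE2L2, through antioxidant response elements. The inducible genes are known targets of IRF1 and NLRC5.

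Txn1, counted over the whole gene, was at 13176, 12155 and 12409 normalized counts in the wild-type libraries and at 12695, 11963 and 12389.5 in those labelled Txn1 KO. The groups overlapped, with a log2 difference of -0.03 (adjusted p = 0.686) and a 95% interval of 93.0% to 104% of wild type. Reads from exons outside a deletion count toward this level, so it checks the label only in part. Lyz2, into which the Cre is placed, was at 361315 to 368284 in wild type and at 1775 to 4327 in the others. The Lyz2 values separate the groups, whereas the Txn1 values do not, so the group is called by its label throughout. Reads in the listed genes ran from 22508616 to 38726953 per library. The macrophage genes Csf1r and Adgre1 had means of 50502 and 17727 in the controls, against 52094 and 16942. Over the whole macrophage list of 9 identifiers, 4 were higher and 3 lower (among them Fcgr1, Cd14 and Mertk, with log2 differences of -0.71, -0.47 and 0.64), and the summed level was 144254 to 147663 in the controls and at most 144823 in the others. Of 12 stromal markers, 9 were lower and 0 higher there, with summed levels of 3603 to 4322 in the controls against 1741 to 2900.2. Col1a2, Bgn, Grem1 and Dcn had the smallest p of these, with log2 differences of -1.36, -1.39, -1.99 and -1.14. Of 9 neutrophil markers 6 were listed, with 1 higher and 2 lower, and summed levels of 671 to 739 in the controls against 1044 to 1130.5. Mmp8 was higher by a log2 difference of 1.06 (means of 390.4 and 816), and S100a9 and Ngp had log2 differences of -0.83 and -0.83. Of 9 lymphocyte markers only Cd79b was listed, at up to 30.6. Wild-type replicate 1 and replicate 3 labelled Txn1 KO held liver transcripts, with Alb at 642.9 and 580.04 against at most 0.838 in the other 4; 7 of 15 liver markers were listed and 0 passed the test. The Y-linked gene Eif2s3y was at 1086 in the controls against 553.6 (adjusted p = 2.75e-09), although both groups are labelled as pooled. What part these differences have in the values below was not tested. In RNA from whole cultures, fewer cells of a type and less RNA per cell cannot be told apart. Nothing in the labels ties the 3 replicates to different animals or cultures, and the p-values then measure only the spread between these libraries, which may be technical.

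Of the 49 genes, 17 were higher and 7 lower under the label Txn1 KO at a limma adjusted p under 0.05, which is 49.0% of them. Among all 13977 genes tested, 21.5% passed, 11.5% as higher and 9.97% as lower. More genes pass at high levels: among the 5121 genes with a wild-type mean of at least 1000 normalized counts, 33.2% passed, beside 24 of the 42 proteasome genes (57.1%) above that level. The median log2 difference was 0.06 over the 49 genes and -0.0049 over all genes tested, and 33 of the 49 lay above 0. Without the 2 libraries that hold liver transcripts, 16 were higher and 5 lower. With a limma prior that has no trend with level, 8 were higher and 1 lower. The differences were small. Among the 24 genes that passed, the rises reached 31.9% (Psmb5) and the falls 13.0% (Psmd10). In 31 of the 49 genes the ranges of the groups did not overlap, beside 36.2% of all genes tested. At a wild-type mean of at least 1000 it was 30 of the 42, beside 2489 of all 5121 genes. The ranges were apart in each of the 24 that passed. That was so for 2927 of all 3001 genes that passed, and it adds little to the calls. The rises lay in the standard 20S core (6 of 15 genes higher, 0 lower) and the 19S cap (10 of 17 higher, 1 lower), with 1 more, Psmd5, among the 19S assembly chaperones. In the core 40% passed and in the cap 64.7%, so the share of the core was the nearer to the 33.2% above. The core count includes Psma8, whose wild-type mean of 33.6 lies below the level of 1000 used there. The falls took in each of the 3 immunoproteasome catalytic genes.

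**Figure D1:**
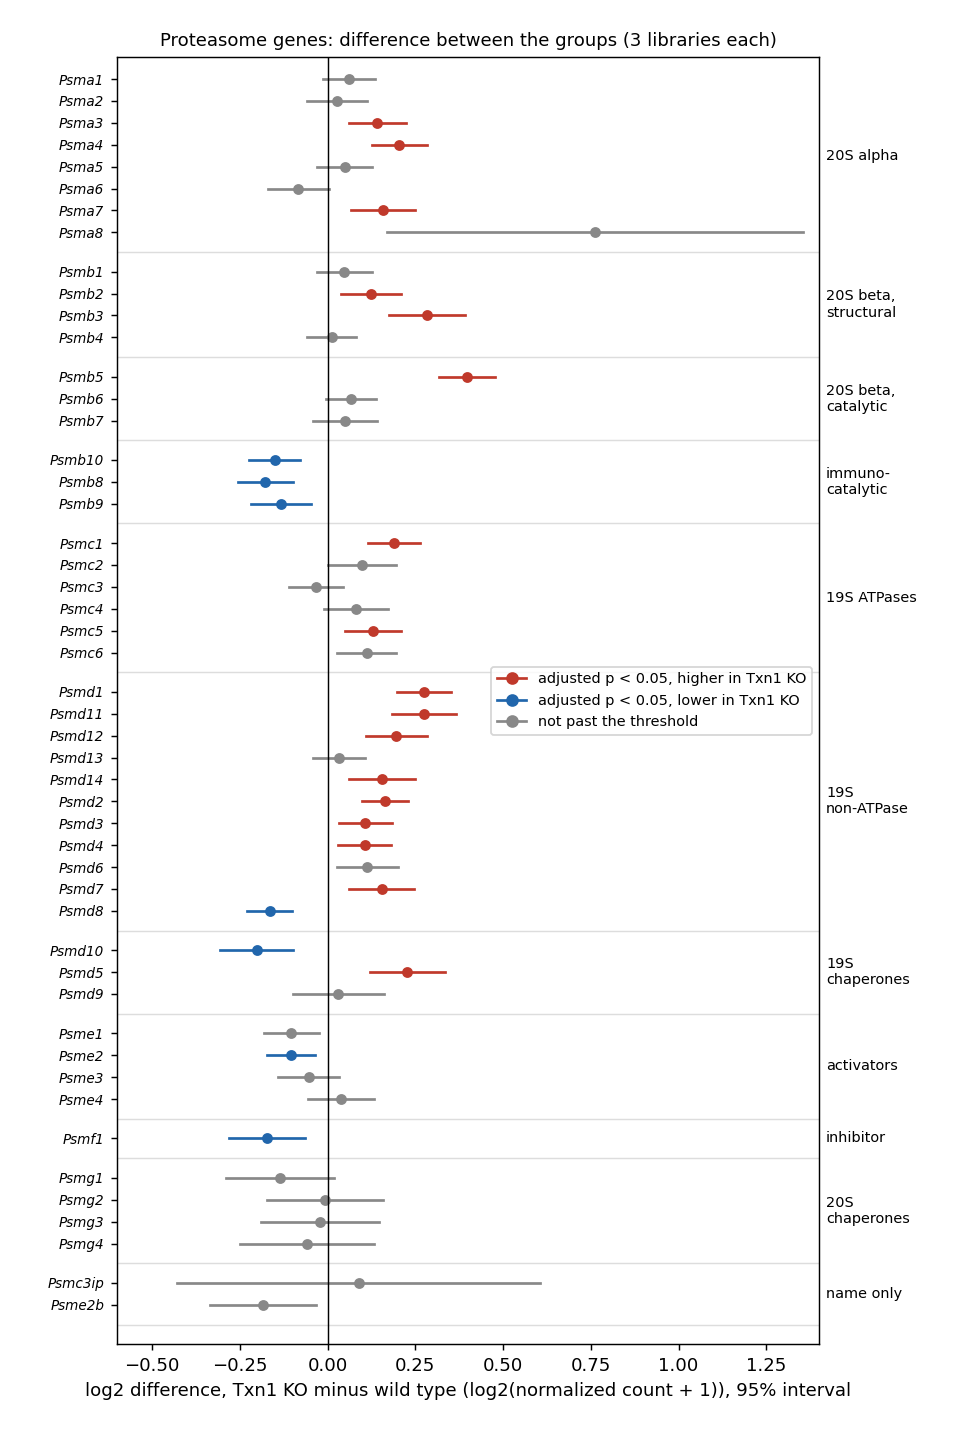
Log2 difference between the libraries labelled Txn1 KO and wild type (x axis, on the log2(normalized count + 1) scale) for the 49 genes, grouped by role; points are limma estimates and bars their 95% intervals, with n = 3 per group. Red marks the 17 genes that were higher and blue the 7 that were lower at an adjusted p under 0.05; the immunoproteasome genes lie to the left of 0 and most 19S genes to its right.

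The promoter of Psmb5 is shown because this gene had the largest rise among those that passed. That of Psmb9 is shown because Psmb9 and Tap1, which run head to head, were both lower. The Psmb9 window lies within the widest annotated span of Psmb9 and reaches into that of Tap1. Capitals in the Psmb5 sequence mark its match to the antioxidant response element core TGACNNNGC, which starts 47 bases before the RefSeq start of the gene. Both runs are the 250 bases before the RefSeq start on build GRCm38.p6, read 5′ to 3′ on the strand of the gene. Psmb5 lies at chr14:54617996-54618245, minus strand, and Psmb9 at chr17:34187331-34187580, minus strand.
Psmb5 promoter: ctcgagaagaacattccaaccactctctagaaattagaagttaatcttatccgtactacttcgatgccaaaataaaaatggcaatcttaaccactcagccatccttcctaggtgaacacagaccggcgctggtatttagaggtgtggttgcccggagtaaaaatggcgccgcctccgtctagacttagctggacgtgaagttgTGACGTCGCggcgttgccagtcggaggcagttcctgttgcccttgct
Psmb9 promoter: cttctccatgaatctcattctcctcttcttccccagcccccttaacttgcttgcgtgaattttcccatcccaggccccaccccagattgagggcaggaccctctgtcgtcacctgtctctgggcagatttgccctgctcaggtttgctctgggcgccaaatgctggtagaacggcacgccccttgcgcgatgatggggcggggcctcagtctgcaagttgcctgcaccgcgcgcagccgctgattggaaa

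A promoter window of 250 bases before and 50 after the start was given for 41 of the 49 genes, all but Psma8, Psmb1, Psmb2, Psmb7, Psmc3, Psmd3, Psmd7 and Psmg2. The core TGACNNNGC, searched on both strands, occurred in 6 of the 41 (14.6%): Psmb5, Psmb6, Psmc6, Psmd9, Psmd12 and Psme4. Among all 27025 genes with a window, 14.0% held it, so the share in proteasome genes was close to that background. Of the 14 higher genes with a window 2 held it, and of the 7 lower genes 0. The stretches of the other upstream matches are shown to let the letters be compared with the Psmb5 match; the core is in capitals, with up to 12 bases on either side, on the strand of the gene. Psmb6 is at chr11:70525336-70525356, plus strand, Psmc6 at chr14:45329585-45329617, plus strand, Psmd9 at chr5:123228147-123228179, plus strand, and Psmd12 at chr11:107479278-107479301, plus strand. In Psmc6 and Psmd12 the match is on the opposite strand, so its reverse complement is in capitals.
Psmb5 core: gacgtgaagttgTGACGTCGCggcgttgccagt
Psmb6 core: gactaaagagagTGACGGAGC
Psmc6 core: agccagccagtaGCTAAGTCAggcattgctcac
Psmd9 core: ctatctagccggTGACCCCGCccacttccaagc
Psmd12 core: tctGCTGTGTCAcatttgcccccc

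Psmb5 and Psmb6, the standard catalytic genes with a window, both held the core. Psmb5 was higher and Psmb6 did not pass the test, as given below; the difference between them was not tested. An interferon regulatory factor element, searched on both strands as GAAA, any 2 bases and GAAA again, occurred in 5 of the 41 genes (12.2%; Psmb3, Psmd4, Psmd9, Psme1 and Psmg4), beside 3.99% of all genes with a window. It was in 0 of the 7 lower genes and in 2 of the 14 higher ones, Psmb3 and Psmd4. The CCAAT box, searched as CCAAT on both strands, was in 14 of the 41 (34.1%) beside 41.1% of all genes. A match is a description of letters in the window and shows no binding.

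In the alpha rings, which form the gate and the outer walls of the core, 3 of 8 genes were higher and 0 lower. That is 37.5% of them, near the 33.2% among all genes with a wild-type mean of at least 1000, a level that Psma8 does not reach. Psma4 encodes alpha 3 and was at 3363, 3290.2 and 3224 normalized counts in the wild-type libraries and at 3764, 3739 and 3877 in those labelled Txn1 KO. Each value of the second group was above each value of the first, with a log2 difference of 0.20 ± 0.037 (SE; limma adjusted p = 0.000642). Psma7, the gene of alpha 4, was at 4215, 3878 and 4010.4 normalized counts in the wild-type libraries and at 4719, 4292 and 4496 in those labelled Txn1 KO, and its log2 difference was 0.16 ± 0.043 (SE; limma adjusted p = 0.0135). Its groups were apart by a narrow gap, between wild-type replicate 1 and replicate 2 labelled Txn1 KO. Psma3, which encodes alpha 7, was at 3484, 3399.8 and 3379 normalized counts in the wild-type libraries and at 3927, 3726 and 3675 in those labelled Txn1 KO. It rose by 10.4%, a log2 difference of 0.14 ± 0.039 (SE; limma adjusted p = 0.0136). Of these, Psma4 passed the test in all 6 fits that left out 1 library, whereas Psma3 no longer passed without wild-type replicate 3 or without replicate 1 labelled Txn1 KO, and Psma7 without wild-type replicate 2 or 3 or replicate 1 labelled Txn1 KO. The pseudogene Gm13835 has a transcript 100% identical to that of Psma3 over 665 bases. Its means were 26.1 in wild type and 110 in the others (log2 difference 2.07, limma adjusted p = 4.16e-06). Reads may have been split between Gm13835 and Psma3. The log2 differences of Psma1, Psma2 and Psma5 were 0.06, 0.03 and 0.05, and that of Psma6 was -0.08 (adjusted p = 0.176). Psma8, the testis form of the alpha 4 subunit, was at 21.4, 45.8 and 33.5 normalized counts in the wild-type libraries and at 62.6, 62.2 and 43.1 in those labelled Txn1 KO. Those counts are low, the groups overlapped, and its log2 difference of 0.76 did not pass (adjusted p = 0.0638).

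Of the 4 beta ring genes without a catalytic site, Psmb3 and Psmb2 were higher. That is 50% of them, beside 33.2% of all genes with a wild-type mean of at least 1000. Psmb3, the gene of beta 3, was at 2559, 2199 and 2345 normalized counts in the wild-type libraries and at 2859.8, 2773 and 2996 in those labelled Txn1 KO. The highest wild-type value, in replicate 1, stayed under the lowest of the other group, and the log2 difference was 0.28 ± 0.051 (SE; limma adjusted p = 0.000632). Psmb2, the gene of beta 4, was at 2271, 2339.8 and 2197 normalized counts in the wild-type libraries and at 2463, 2471 and 2479 in those labelled Txn1 KO. All 3 values of the libraries labelled Txn1 KO were nearly equal and above wild type, with a log2 difference of 0.12 ± 0.041 (SE; limma adjusted p = 0.0395); it no longer passed when any library but wild-type replicate 2 was left out. Psmb1 and Psmb4, which encode beta 6 and beta 7, had log2 differences of 0.05 (adjusted p = 0.413) and 0.01 (adjusted p = 0.86).

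Of the 3 standard catalytic subunits, only Psmb5 passed the test (33.3%, beside 33.2% of all genes with a wild-type mean of at least 1000). Psmb5 encodes beta 5, the chymotrypsin-like site and the main target of proteasome inhibitors such as bortezomib. It was at 4991, 4855 and 4863 normalized counts in the wild-type libraries and at 6499.8, 6175 and 6721 in those labelled Txn1 KO. The means were 4903 ± 76.3 and 6465 ± 274 (SD, n = 3), the groups lay far apart, and the level was 31.9% higher, with a log2 difference of 0.40 ± 0.038 (SE; limma adjusted p = 5.68e-07). The 95% interval put the second group at 125% to 139% of the first. Psmb6, the gene of the caspase-like subunit beta 1, was at 8995, 8704 and 8507 normalized counts in the wild-type libraries and at 9268, 8977 and 9203 in those labelled Txn1 KO. Psmb7, the gene of the trypsin-like subunit beta 2, was at 2842, 2771 and 2725 normalized counts in the wild-type libraries and at 3015, 2876 and 2744 in those labelled Txn1 KO. Both sets of values overlapped between groups, with log2 differences of 0.07 (adjusted p = 0.183) and 0.05 (adjusted p = 0.468). Their 95% intervals, 99.7% to 110% and 97.2% to 110% of wild type, do not reach the lower bound of Psmb5. A second gene, Gm3375, has a transcript 98.9% identical to that of Psmb5, and its level of 20.8 in the controls and 18.6 in the others was far below that of Psmb5.

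All 3 immunoproteasome catalytic genes were lower, beside 33.2% of all genes with a wild-type mean of at least 1000 that passed in either direction. Psmb8, the gene of beta 5i, was at 6733, 6549 and 7045 normalized counts in the wild-type libraries and at 6118, 6038 and 5818 in those labelled Txn1 KO. It fell by 11.6%, a log2 difference of -0.18 ± 0.037 (SE; limma adjusted p = 0.0021). Psmb10, the gene of beta 2i, was at 4900.0, 4866 and 4949 normalized counts in the wild-type libraries and at 4449, 4433 and 4371 in those labelled Txn1 KO. Its replicates agreed closely within each group, at 4905 ± 41.4 and 4418 ± 41.2 (SD, n = 3), and the log2 difference was -0.15 ± 0.034 (SE; limma adjusted p = 0.0038). Psmb9, the gene of beta 1i, was at 2417, 2437 and 2518 normalized counts in the wild-type libraries and at 2216, 2233 and 2270.4 in those labelled Txn1 KO, with a log2 difference of -0.13 ± 0.04 (SE; limma adjusted p = 0.0239). In each of the 3 genes every value of the libraries labelled Txn1 KO lay below every wild-type value. Psmb8 and Psmb10 passed in each fit that left out 1 library, whereas Psmb9 no longer passed without wild-type replicate 3 or without replicate 1 or 2 labelled Txn1 KO (adjusted p up to 0.12). None of the 3 passed when the limma prior was fitted without a trend (adjusted p = 0.0721, 0.0862 and 0.0513 for Psmb8, Psmb9 and Psmb10).

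Psmb8 and Psmb9 lie on chromosome 17 (GRCm38) on either side of Tap1, which encodes a subunit of the peptide transporter that supplies MHC class I. Psmb9 (34181987 to 34187764, minus strand) and Tap1 (34187553 to 34197225, plus strand) run head to head, their outermost annotated starts 211 bases apart with overlapping spans, and Psmb8 follows at 34197721 to 34201454 on the plus strand. Tap1 was at 6045, 6207 and 6682 normalized counts in the wild-type libraries and at 5264, 5575 and 5032 in those labelled Txn1 KO. It fell in the same direction as both Psmb genes, with no overlap between groups and a log2 difference of -0.25 ± 0.044 (SE; limma adjusted p = 0.000408). Reads from the overlap cannot be assigned to Psmb9 or Tap1 unless counting used the strand, which the sources used here do not give, and the value of Psmb9 is uncertain to that extent. Psmb10 lies on another chromosome, 8, so its fall is at a separate locus.

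**Figure D2:**
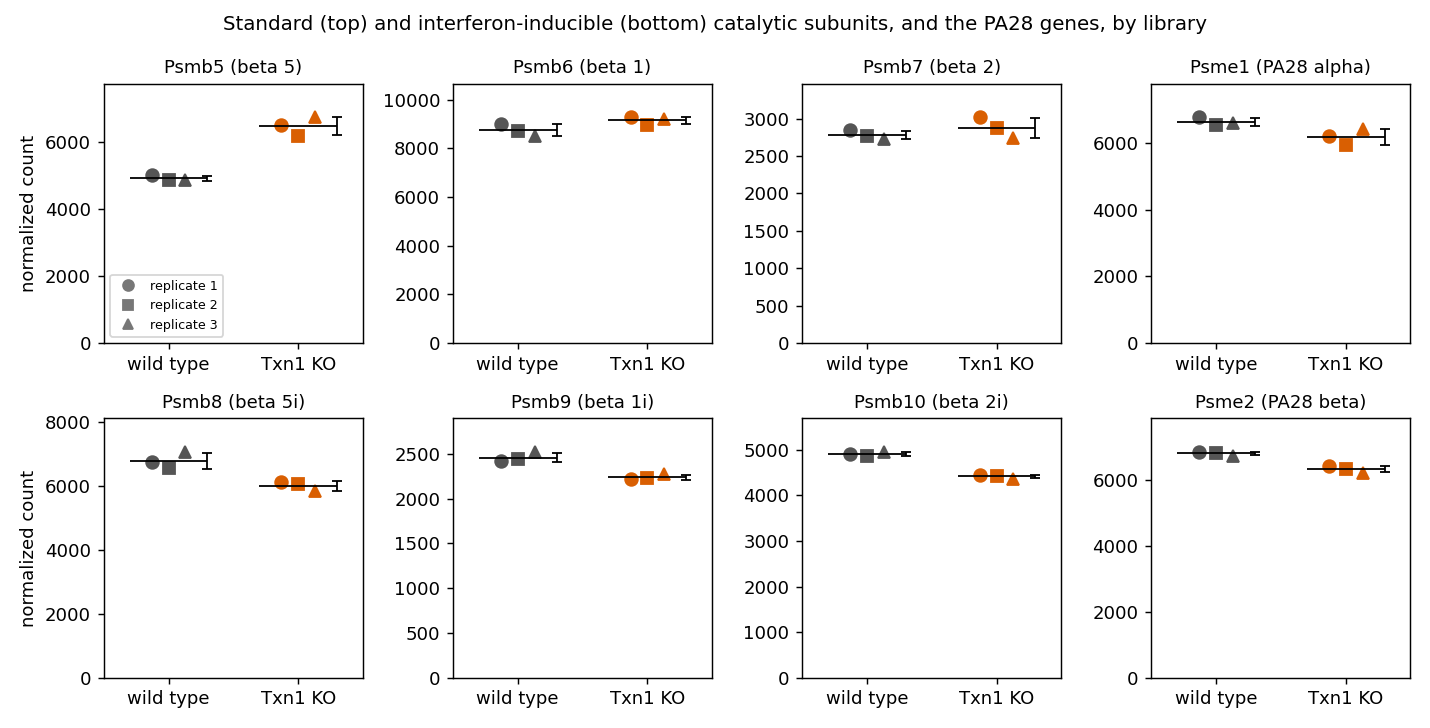
Normalized counts (y axis, from 0) in each library for the standard catalytic genes Psmb5, Psmb6 and Psmb7, their inducible counterparts below them, and the PA28 genes Psme1 and Psme2; symbols mark the replicate, lines the group mean and bars the SD (n = 3). Psmb5 is higher in all 3 libraries labelled Txn1 KO, and Psmb8, Psmb9, Psmb10, Psme1 and Psme2 are lower in all 3.

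The balance of inducible over standard subunit was compared within each library, since each beta site is filled by one or the other. The ratio of Psmb8 to Psmb5 was 1.35, 1.35 and 1.45 in the wild-type libraries and 0.941, 0.978 and 0.866 in those labelled Txn1 KO. Wild-type libraries thus held more counts of Psmb8 than of Psmb5, and the others fewer. The log2 ratio fell by 0.58, of which the rise of Psmb5 gave the larger part. The ratio of Psmb9 to Psmb6 was 0.269, 0.280 and 0.296 against 0.239, 0.249 and 0.247, a log2 ratio lower by 0.20. For Psmb10 to Psmb7 it was 1.72, 1.76 and 1.82 against 1.48, 1.54 and 1.59, also lower by 0.20. No pair overlapped between groups. For each of the 3 pairs the two-sided exact permutation p was 0.10, which is the smallest that 3 against 3 allows, and it was 0.10 after adjustment over the 3 pairs. Per kilobase of transcript, the inducible gene made up 43.3% ± 1.01 of the beta 5 pair in the controls and 33.9% ± 1.39 under the label Txn1 KO (SD, n = 3). The share was 14.2% ± 0.594 and 12.6% ± 0.229 for the beta 1 pair, and 61.0% ± 0.625 and 57.6% ± 0.938 for the beta 2 pair. These are shares of RNA, not of assembled particles.

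**Figure D3:**
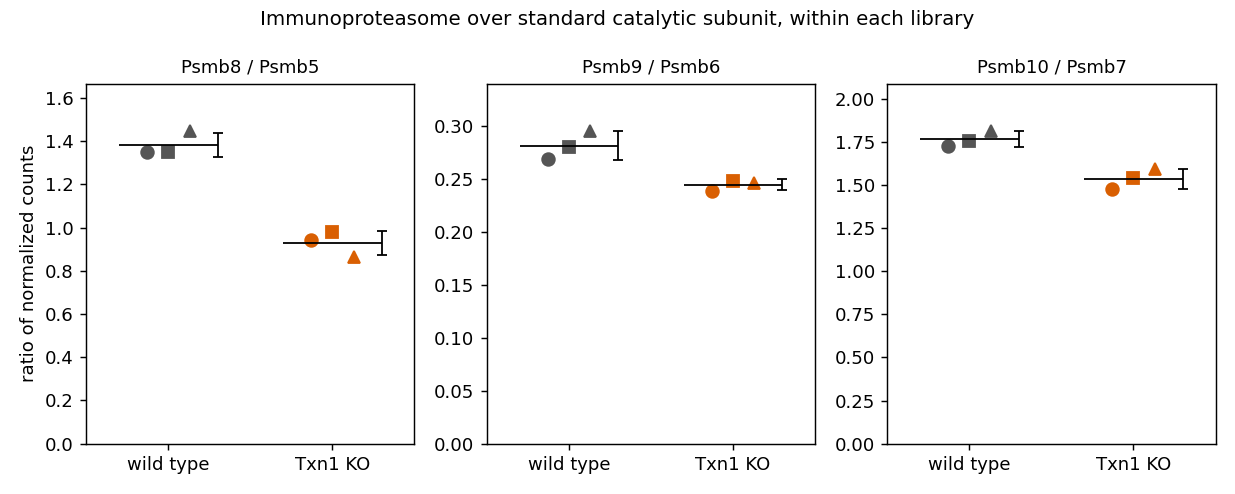
Ratio of the normalized counts of the inducible to the standard catalytic gene (y axis, from 0) in each library for the 3 beta sites; symbols mark the replicate, lines the group mean and bars the SD (n = 3). The groups do not overlap in any pair, and Psmb8 over Psmb5 goes from above 1 in wild type to below 1 in the libraries labelled Txn1 KO.

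In the ring of 6 ATPases at the base of the 19S cap, 2 genes were higher and 0 lower. That is 33.3% of them, near the 33.2% among all genes with a wild-type mean of at least 1000. Psmc1, the gene of Rpt2, whose tail helps to open the core, was at 6046, 5838 and 5783 normalized counts in the wild-type libraries and at 6508, 6798 and 6834 in those labelled Txn1 KO. The groups did not overlap, and the log2 difference was 0.19 ± 0.035 (SE; limma adjusted p = 0.000802). Psmc5, the gene of Rpt6, was at 3934, 3709.9 and 3830.1 normalized counts in the wild-type libraries and at 4202, 4068 and 4273 in those labelled Txn1 KO, a log2 difference of 0.13 ± 0.038 (SE; limma adjusted p = 0.0221). It no longer passed without wild-type replicate 2 or 3 or without replicate 1 or 3 labelled Txn1 KO. Psmc6, Psmc2 and Psmc4 had log2 differences of 0.11 (adjusted p = 0.0581), 0.10 (adjusted p = 0.148) and 0.08 (adjusted p = 0.207), and Psmc3 had one of -0.03 (adjusted p = 0.599).

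Of the 11 non-ATPase subunits of the 19S cap, 8 were higher and 1 lower. That is 81.8% of them, beside 33.2% of all genes with a wild-type mean of at least 1000. Psmd1 encodes Rpn2, a large scaffold subunit at the base of the cap. It was at 4969, 5044 and 4732 normalized counts in the wild-type libraries and at 5885, 5849 and 6096 in those labelled Txn1 KO, and rose by 20.9% with a log2 difference of 0.27 ± 0.037 (SE; limma adjusted p = 3.14e-05). Psmd11 encodes Rpn6, a scaffold subunit that clamps the cap to the core and is known to set the amount of assembled proteasome in some cell types. It was at 2069, 2124 and 2037 normalized counts in the wild-type libraries and at 2449, 2637 and 2452 in those labelled Txn1 KO, with a log2 difference of 0.27 ± 0.044 (SE; limma adjusted p = 0.000174). In both genes the groups were well apart, and both passed in each fit that left out 1 library. Psmd2 (Rpn1), Psmd12 (Rpn5), Psmd14 (Rpn11, the deubiquitinase of the cap), Psmd7 (Rpn8), Psmd3 (Rpn3) and Psmd4 (Rpn10, a ubiquitin receptor) were higher by log2 differences of 0.16, 0.20, 0.16, 0.15, 0.11 and 0.11. Psmd2 and Psmd12 passed whichever library was left out. Psmd14 no longer passed without wild-type replicate 2 or 3 or without replicate 1 or 2 labelled Txn1 KO (adjusted p up to 0.0903), and Psmd7 without wild-type replicate 1 or replicate 1 labelled Txn1 KO (up to 0.12). Psmd3 and Psmd4, at an adjusted p of 0.0416 each, passed in none of those 6 fits. Psmd6 and Psmd13 did not pass, with log2 differences of 0.11 (adjusted p = 0.0624) and 0.03 (adjusted p = 0.58).

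Psmd8, the gene of the lid subunit Rpn12, moved the other way. It was at 15415, 15844 and 15481 normalized counts in the wild-type libraries and at 13939, 13994 and 13757 in those labelled Txn1 KO, with all 3 of the latter below wild type. The fall of 10.8%, a log2 difference of -0.16 ± 0.031 (SE; limma adjusted p = 0.000763), kept its side of the threshold under each of the 20 alternatives, and Psmd8 was the only one of the 7 lower genes to do so. Among the 17 higher genes, 8 passed under all 20: Psma4, Psmb5, Psmc1, Psmd1, Psmd2, Psmd5, Psmd11 and Psmd12. Per kilobase of transcript Psmd8 also had one of the highest levels in wild type, 10117 ± 150.0 normalized counts per kilobase (SD, n = 3), next to Psmb6 at 10946 ± 308 and above the next gene, Psme2, at 7068 ± 57. Psmd1 and Psmd2, the scaffolds at the base of the cap, were at 1579 ± 52.3 and 3827 ± 32.3 on the same scale.

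The chaperones that assemble the base of the 19S cap did not move together. Psmd5 (S5b) was at 1210.5, 1279.9 and 1160.4 normalized counts in the wild-type libraries and at 1453, 1398 and 1419.8 in those labelled Txn1 KO, and was higher in all 3, with a log2 difference of 0.23 ± 0.05 (SE; limma adjusted p = 0.00337). Psmd10 (gankyrin) was at 1511, 1554 and 1513 normalized counts in the wild-type libraries and at 1399, 1298 and 1284 in those labelled Txn1 KO, and was lower in all 3, with a log2 difference of -0.20 ± 0.049 (SE; limma adjusted p = 0.00631). Psmd10 lies on the X chromosome, and Xist, the transcript of the inactive X, had a log2 difference of 0.29 (adjusted p = 0.0129). What part the mix of sexes has in the Psmd10 value was not tested. Psmd9 (p27) had a log2 difference of 0.03 (adjusted p = 0.786), with overlapping groups. Of the 4 chaperones of the 20S core none passed: Psmg1, the one with the smallest p, was at 569.6, 525 and 509.8 normalized counts in the wild-type libraries and at 490.4, 511 and 459 in those labelled Txn1 KO, a log2 difference of -0.14 (adjusted p = 0.217), and Psmg2, Psmg3 and Psmg4 had log2 differences of -0.01, -0.02 and -0.06. These 4 genes had wild-type means of 418 to 535, and their intervals were wider than those of the subunits other than Psma8. That of Psmg4 ran from 84.1% to 110% of wild type.

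Of the 4 activator genes, 1 was lower and 0 higher (25%, beside 33.2% of all genes with a wild-type mean of at least 1000). Psme1 and Psme2 encode the alpha and beta subunits of PA28, the interferon-inducible cap. Psme2 was at 6839, 6823 and 6737 normalized counts in the wild-type libraries and at 6418, 6336 and 6223 in those labelled Txn1 KO. The ranges did not overlap, and the log2 difference was -0.10 ± 0.033 (SE; limma adjusted p = 0.0307), but the call was lost in each of the 6 fits that left out 1 library. Psme1 was at 6778, 6537 and 6621 normalized counts in the wild-type libraries and at 6208, 5936 and 6428 in those labelled Txn1 KO. It was also below wild type in all 3 libraries, with a log2 difference of -0.10 ± 0.037 (SE; limma adjusted p = 0.057), which missed the threshold. Psme2b, the near copy of Psme2, was at 581, 634 and 627 normalized counts in the wild-type libraries and at 579.6, 541 and 502 in those labelled Txn1 KO, a log2 difference of -0.18 (adjusted p = 0.0798). Its transcript is 99.4% identical to that of Psme2 over 794 bases, so reads of the pair may have been split between them. Psme3, which encodes the nuclear cap PA28 gamma and is not induced by interferon, had a log2 difference of -0.05 (adjusted p = 0.409), and Psme4 (PA200) one of 0.04 (adjusted p = 0.611). The inhibitor gene Psmf1 (PI31) was at 1059.7, 1097 and 1103 normalized counts in the wild-type libraries and at 973, 983 and 935 in those labelled Txn1 KO. It was lower by 11.3%, a log2 difference of -0.17 ± 0.052 (SE; limma adjusted p = 0.0228), which no longer passed without wild-type replicate 2 or 3 or without replicate 3 labelled Txn1 KO. Counting the interferon-inducible genes Psmb8, Psmb9, Psmb10, Psme1 and Psme2 together, 4 of 5 were lower (80%), and in all 5 the groups did not overlap. Of all genes with a wild-type mean of at least 1000, 33.2% passed in either direction. The groups did not overlap in 2489 of those 5121 genes. None of the 5 passed with a limma prior that has no trend.

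**Figure D4:**
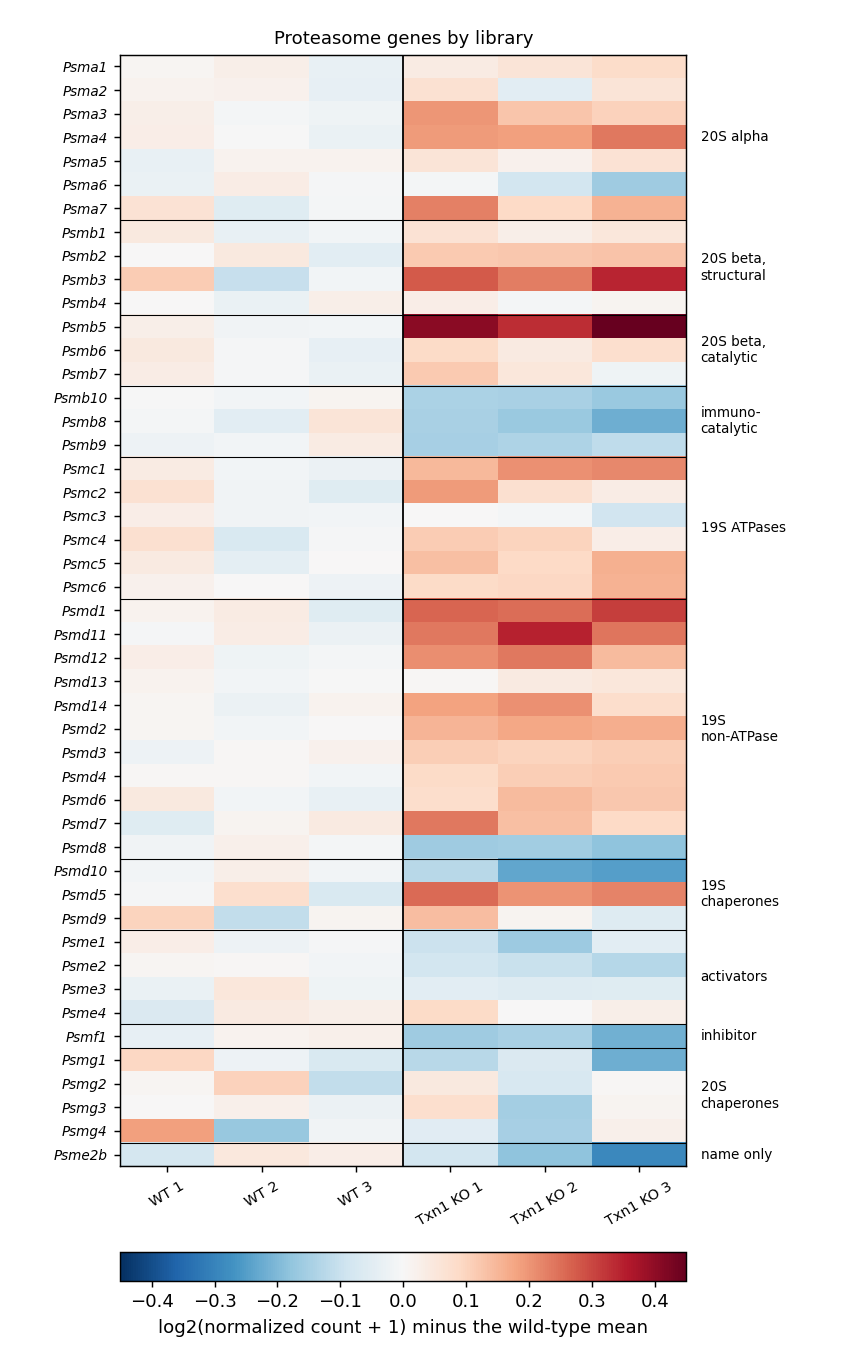
Log2(normalized count + 1) of each gene in each library minus its wild-type mean (colour; red higher, blue lower) for the 47 genes with a wild-type mean of at least 100, grouped by role. The 3 libraries labelled Txn1 KO show the same direction for Psmb5, most 19S genes, the immunoproteasome genes and Psmd8. Of the 20S chaperones Psmg1 to Psmg4 none passed the test.

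The genes that regulate or serve the proteasome were taken from lists. Of 19 listed partners outside the name rule, which include shuttle factors, receptors and assembly factors, 7 were higher and 1 lower (42.1%). The share was 21.5% over all genes and 33.2% among those with a wild-type mean of at least 1000. The median log2 difference of the 19 was 0.09, beside -0.0049 over all genes. Zfand5, an activator of the 26S particle, was at 5563, 6135 and 5951 normalized counts in the wild-type libraries and at 7519, 7223 and 7271 in those labelled Txn1 KO, a log2 difference of 0.32 ± 0.039 (SE; limma adjusted p = 1.16e-05). Adrm1 (Rpn13, a ubiquitin receptor of the cap) was at 2660.4, 2661 and 2737 normalized counts in the wild-type libraries and at 3328, 3140.3 and 3087 in those labelled Txn1 KO, a log2 difference of 0.25 ± 0.041 (SE; limma adjusted p = 0.000269). Midn (midnolin, which brings proteins to the proteasome without ubiquitin) and Rad23b (a ubiquitin shuttle) were higher by log2 differences of 0.21 and 0.19. Pomp, the chaperone of the 20S beta rings, had a log2 difference of 0.10 (adjusted p = 0.0952). Of 11 ubiquitin and p97 genes, 4 were higher and 3 lower (63.6% of them, median log2 difference 0.05). Among them were Nsfl1c and Nploc4, the genes of the p97 cofactors p47 and NPL4, with log2 differences of 0.19 (adjusted p = 0.00107) and 0.13 (adjusted p = 0.0284). Vcp, the gene of p97, was higher, with a log2 difference of 0.17 (adjusted p = 0.00135), and the ubiquitin fusion gene Rps27a was lower, with one of -0.15 (adjusted p = 0.00797).

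The transcription factors named above were compared as well. Of 5 genes listed for the NFE2L1 and NFE2L2 route 1, Nfe2l2, was higher. The list also holds Nrf1, which encodes nuclear respiratory factor 1, a different factor from NFE2L1. Nrf1 had a log2 difference of -0.05 (adjusted p = 0.615). Nfe2l2, which encodes NRF2, was at 6624, 6713 and 6496 normalized counts in the wild-type libraries and at 7172, 7146 and 7207 in those labelled Txn1 KO. Its log2 difference was 0.12 ± 0.033 (SE; limma adjusted p = 0.0149). Nfe2l1 had a log2 difference of -0.04 (adjusted p = 0.456), and Keap1, whose product marks NRF2 for degradation, one of 0.02 (adjusted p = 0.735). In the interferon route, Jak2, which encodes a kinase of the interferon gamma receptor, was lower, with a log2 difference of -0.19 (adjusted p = 0.0164). Irf1 had a log2 difference of -0.12 (adjusted p = 0.0873) and Nlrc5 one of -0.15 (adjusted p = 0.0571), neither of which passed. The 9 MHC class I loading genes had a median log2 difference of -0.02. Of them 4 were lower and 0 higher (44.4%, beside 33.2% of all genes with a wild-type mean of at least 1000). Beside Tap1 these were Erap1 (a trimming peptidase), Tapbp (tapasin) and B2m (the light chain), with log2 differences of -0.18, -0.12 and -0.12. Tap2, which encodes the other transporter subunit, had one of 0.05 (adjusted p = 0.385). RNA levels of these factors say nothing of the activity of their proteins.

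In these values 1 read was worth 0.777 to 1.35 normalized counts, and 3 reads, taken as the floor, 2.33 to 4.04, far below the level of each of the 49 genes. Counting without strand could affect the 12 of the 49 genes that share exonic bases with a gene on the opposite strand, 5 of which passed the test: Psma4, Psmb8, Psmb9, Psmd1 and Psmd3. For 18 of the 49, another gene has a transcript at least 90% identical over at least 300 bases, and in 12 cases that gene is in the table, so reads may have been split. Among these, Psmd13 with Sirt3, Psmc3ip with Mlx and Psmd1 with Gm21972 share exonic bases at one locus. For those pairs the identical stretch need not be a separate copy.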

How the data were processed

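PolyA-selected RNA was measured in 3 wild-type libraries and 3 labelled Txn1 KO. The submitters' processing notes name bcl2fastq 2.20, Trimmomatic 0.36, STAR 2.5.2b, DESeq2 without a version, and build GRCm38 (mm10). Not given in the sources used here are the read counter and its use of strand. The signal deposited by the authors is, for each library, the read count of a gene over that library's size factor. Whole reads were recovered for 100% of values at a tolerance of 0.01 reads. The authors' deposited table also gives log2 fold changes and p-values, used as an alternative. By it, 15 of the 49 genes were higher and 7 lower. A deposited gene ontology table was not used here. The control columns carry BMDM and a number without a genotype, and wild type is the only group left for them. No per-sample column (0) was left unused.

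The planned test was edgeR for raw counts or limma where values are normalized. They are normalized, so limma 3.58.1 (R 4.3.3) with a trended prior was fitted on log2(value + 1) over 13977 genes (mean of 10 or more). This scale understates changes of low genes. P-values are two-sided and Benjamini-Hochberg adjusted over all of these genes, with a threshold of 0.05. Levels per kilobase use the principal transcript of GENCODE M21. On the recovered reads, edgeR 4.0.16 called 1580 genes higher and 1389 lower. Further alternatives were DESeq2 1.42.0, limma-voom, other pseudocounts, filters and scalings, leaving out libraries, and the replicate number as a block. The labels do not say that a number marks shared material, so the samples were not treated as paired in the main fit. The deviations of same-numbered libraries had r = -0.19, 0.01 and -0.25. With 3 libraries per group, these r cannot exclude shared material. Between differently numbered libraries r ran from -0.22 to 0.32. It was highest for wild-type replicate 1 and replicate 3 labelled Txn1 KO, which hold the liver transcripts. Whether libraries shared handling across groups was not tested. Promoters are RefSeq windows on GRCm38.p6. Near-identical transcripts were found with BLAST 2.17.0.

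The genes and lists were chosen with earlier results of these data known. Values by library are given for the 6 catalytic genes, Psme1, Psme2 and, in each other role, up to 3 genes that passed with the smallest p, or 1 where none passed. From each other list up to 4 such genes are named, or all where 5 or fewer passed. Some results that this rule would name in the interferon and macrophage lists, and the count over the interferon list, are not reported here. Values of Alb, Eif2s3y, Xist, Psma8 and of list genes that did not pass were added after they were seen. On simulated libraries with known changes, 34.0% of changed genes were recovered at a log2 change of 0.25 and 67.7% at 0.5 (13826 genes tested, 10 of 110 calls false). There 97 and 99 genes of any level were changed, far fewer than the 3001 that passed in the data. The 49 genes also had a median wild-type mean of 3315, beside 552 over all genes. The simulated rates therefore do not give the power for the 49.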

Additional observations from a re-analysis of the deposited data

How the results depend on the processing

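Of the 49 genes, 17 were higher and 7 lower. Without a trended prior 8 were higher and 1 lower. At an adjusted p under 0.01 it was 9 and 4. Leaving out 1 library gave 9 to 15 higher and 4 to 6 lower, with the fewest rises (9) without replicate 1 labelled Txn1 KO, 10 without wild-type replicate 3, and the fewest falls (4) without wild-type replicate 3. The replicate block gave 14 higher and 6 lower, losing Psmb2, Psmd3, Psmd4 and Psme2. The labels do not say whether the numbers pair the samples, so it cannot be told which fit is the apt one. The counts were 17 and 7 with edgeR, 17 and 8 with limma-voom, 16 and 8 with DESeq2, and 18 and 6 with equal library totals, a setting chosen after seeing the data. Over all genes, 1607 were higher and 1394 lower, against 923 and 602 without the trended prior and 1024 and 809 at 0.01. Leaving out 1 library gave 1197 to 1516 higher and 891 to 1304 lower. The log2 ratio moved from -0.61 to -0.53 for Psmb8 to Psmb5, from -0.23 to -0.16 for Psmb9 to Psmb6 and from -0.23 to -0.17 for Psmb10 to Psmb7 in those fits.

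Changes of sign occurred only in genes that did not pass the test. Psmc3 was at 0.0097 without the 2 libraries that hold liver transcripts. Leaving out 1 library in turn, log2 differences ran from -0.0031 to 0.025 for Psmb4, -0.025 to 0.080 for Psmd9, -0.062 to 0.044 for Psmg2, -0.070 to 0.044 for Psmg3, -0.143 to 0.034 for Psmg4 and -0.141 to 0.335 for Psmc3ip. The cause was not tested. The smallest change that passed was that of Psme2, which fell by 6.97%.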

Other observations

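Some proteasome genes lie near genes that moved far more than they did. Within 500 kb, 8 of the 49 (16.3%) have a neighbour that passed the limma test with a change of at least 2-fold, beside 21.6% of all 13944 tested genes with a position, so such neighbours were no more frequent than in the background. These pairs were chosen after their values were seen. Psmd1, which was higher (log2 difference 0.27), lies on chromosome 1 between the interferon-inducible nuclear body genes Sp140 (419 kb away; -2.51, adjusted p = 1.00e-12) and Sp110 (466 kb; -2.49, adjusted p = 2.26e-13) on one side and B3gnt7 (164 kb; 3.59, adjusted p = 2.86e-10) on the other. Psmd7, also higher (0.15), lies 177 kb from Nqo1, a quinone reductase gene and NRF2 target (1.45, adjusted p = 4.69e-11). Psmf1, which was lower (-0.17), lies 361 kb from Srxn1, the sulfiredoxin gene and another NRF2 target (1.20, adjusted p = 8.77e-13). It also lies 441 kb from Rps15a-ps7, which had a larger change (3.82, adjusted p = 3.68e-08). The closest such neighbours belong to genes that did not pass. These are Slc22a23 (0.985 kb from Psmg4; 1.47, adjusted p = 0.00692) and Wdr66 (1.97 kb from Psmd9; 1.57, adjusted p = 0.00318). Not all such neighbours are named here.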
